A study of Homo sapiens with 15 samples.

Results

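The genes described here are outputs and feedback inhibitors of ERK signaling in HaCaT cells, an immortal line derived from human skin keratinocytes. They were chosen by name, with earlier results of these data known. The list of 10 genes holds the phosphatases DUSP1, DUSP4, DUSP5 and DUSP6 and the Sprouty genes SPRY2 and SPRY4. It also holds the Sprouty-related genes SPRED1 and SPRED2, PHLDA1 and EGR1. Of these 10, 9 were found among the 17740 genes listed for the lower dose and the 17653 genes listed for the higher dose, and DUSP1 was not analysed here. RNA was sequenced from 5 groups of 3 libraries. The groups were untreated HaCaT cells (the control), cells given silver sulfide (Ag2S) nanoparticles (NPs) at 160 or 320 μg/mL, and cells given Li-doped Ag2S NPs at 160 or 320 μg/mL, all for 24 h. All groups are thus the same cell line, and the NPs differ in whether the silver sulfide was doped with lithium. The authors also report stronger emission from the doped NPs and some difference in hydrodynamic diameter. The part of these properties in the results was not tested. The libraries carry 15 separate replicate numbers. Whether they stem from separate cultures is not stated in the sources used here. The p-values then measure only how far these libraries spread, and that spread may be technical.

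ERK is the last kinase of a cascade that carries signals from growth factor receptors through RAS, RAF and MEK to the nucleus. Active ERK switches on a set of genes within a short time, and several of these genes encode proteins that switch the cascade off again. DUSP4 and DUSP5 are phosphatases of the nucleus and DUSP6 is a phosphatase of the cytoplasm, and all of them can remove the activating phosphates from ERK. Sprouty and SPRED proteins act higher up, between the receptors and RAF. EGR1 is an immediate early transcription factor, and in keratinocytes the cascade is known for its part in proliferation, migration and wound closure.

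The promoter letters of 2 of these genes are shown because their mRNAs followed different courses. EGR1 mRNA was higher than control in every treated group, whereas SPRY2 mRNA passed the test in 1 of the 4 treated groups, and in all 4 when libraries were scaled by their median ratio. Promoters of 8 of the 10 genes, DUSP1 among them, were found in the RefSeq table on GRCh38.p14, with 11 windows of the 250 bases before a start. Of these windows, 5 overlapped annotated exons of a longer transcript of the same gene and are not shown. The DUSP1 window and a SPRED2 window outside exons are not shown either. Capitals mark matches on either strand to 4 motifs, namely the CArG box of serum response factor, the core of the cAMP response element (TGACG), an AP-1 site (TGANTCA) and an ETS site (CCGGAA). The EGR1 window is chr5:138465229-138465478 on the plus strand and the SPRY2 window, the farthest upstream of 3, is chr13:80341127-80341376 on the minus strand, both written 5′ to 3′. The other SPRY2 windows, chr13:80339660-80339909 and chr13:80340109-80340358, also lie outside exons, held no match to any of these motifs and are not printed. Starts are those of RefSeq, and neither printed window adjoins the GENCODE start of its gene (80340951 for SPRY2, 138465490 for EGR1).
EGR1: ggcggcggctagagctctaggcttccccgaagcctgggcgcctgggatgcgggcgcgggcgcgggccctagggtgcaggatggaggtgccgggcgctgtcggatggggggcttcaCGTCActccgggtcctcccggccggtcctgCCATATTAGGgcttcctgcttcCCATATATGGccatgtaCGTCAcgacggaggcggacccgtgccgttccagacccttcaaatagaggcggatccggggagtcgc
SPRY2: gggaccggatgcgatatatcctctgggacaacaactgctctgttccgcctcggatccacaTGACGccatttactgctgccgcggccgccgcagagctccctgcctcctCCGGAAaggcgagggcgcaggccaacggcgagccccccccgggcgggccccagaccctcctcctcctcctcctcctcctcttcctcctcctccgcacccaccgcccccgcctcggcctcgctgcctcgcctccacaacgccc

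The EGR1 window held 2 CArG boxes, from 105 to 96 and from 83 to 74 bases before the start, and 2 cores of the cAMP response element. The SPRY2 window held 1 such core and 1 ETS site. No match overlapped a match to another motif. Of 35116 promoter windows of this length in the table, 1.16% held a CArG box, 21.2% the cAMP response element core, 6.57% the AP-1 site and 14.5% the ETS site. A match describes the letters and is no measured binding site.

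Values are FPKM as the authors deposited them, that is, the fragments of a gene divided by its length and by the size of the library. Summed over genes they ran from 582451 to 698579 per library, and the highest sum, in replicate 15 of Li-doped Ag2S NPs at 320 μg/mL, stood above the 631117 and 626624 of the other libraries of its group. With Ag2S NPs at 160 μg/mL, replicate 6 had a sum of 648712 against 589969 and 607082. That library was the lowest of its group for DUSP4, DUSP5, SPRY2, SPRED1, SPRED2, PHLDA1 and EGR1, and the highest for DUSP6. The number of reads behind the values is unknown. All 10 keratinocyte markers examined, such as KRT5, KRT14 and TP63, had a mean of at least 1 FPKM in every group. Their sum was 9384 to 9738 FPKM in control. It was 14084 to 15380 and 14787 to 16573 with Ag2S NPs at 160 and 320 μg/mL. With Li-doped Ag2S NPs it was 11645.4 to 14018.5 at 160 μg/mL and 25029 to 29847 at 320 μg/mL. At 160 μg/mL of the Li-doped NPs KRT5 was lower than in control, with means of 3195 and 4128 FPKM. KRT14 was higher, with means of 5167 and 2635, and the other keratinocyte markers also had higher means there. In bulk RNA, fewer cells of a type and less RNA per cell cannot be told apart. Beside the results below, 3 of 5 leukocyte markers had a row, and their sum was 25.8 to 29.4 FPKM with Li-doped Ag2S NPs at 160 μg/mL against 11.1 to 12.1 in control. CD68, a protein of lysosomes, made up most of it with means of 26.6 and 10.3, while the T cell marker CD3E was at 0 in all libraries of that treated group. The 8 fibroblast markers summed to 13.2 to 16.3 FPKM in control and 2.39 to 4.59 in that group, with DCN at means of 7.08 and 0.0733 and LUM at 5.19 and 0.04, while TWIST2 was at 2.11 and 2.90 and PDGFRB at 0.00667 and 0.417. The 4 melanocyte markers with a row summed to 1.74 to 1.96 in control and 3.07 to 3.34 in that group. The 4 endothelial markers with a row summed to 3.36 to 4.01 and 0.07 to 0.35, with CDH5 at means of 3.11 and 0. The part of these markers in the results was not tested.

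Of the 9 ERK output and feedback genes, all but SPRY2 had their highest mean with Li-doped Ag2S NPs at 160 μg/mL. In that group PHLDA1 stood at 7.73 times and DUSP4 at 7.89 times its mean in control, and EGR1, DUSP6 and DUSP5 at 3.50, 3.41 and 3.23 times. At 320 μg/mL of the same NPs the same genes lay at 1.44, 2.79, 1.76, 1.03 and 0.984 times control. Of the 8 genes with a mean of at least 1 FPKM, which were tested with limma on log2(FPKM + 0.1), 7 passed an adjusted p of 0.05 as higher than control with Li-doped Ag2S NPs at 160 μg/mL and SPRY2 did not pass. Among all 11987 genes tested there, 22.6% were called higher and 40.6% lower. The 8 genes each had a mean of at least 2.89 FPKM in control, so none passed the filter through the treated group alone.

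**Figure D1:**
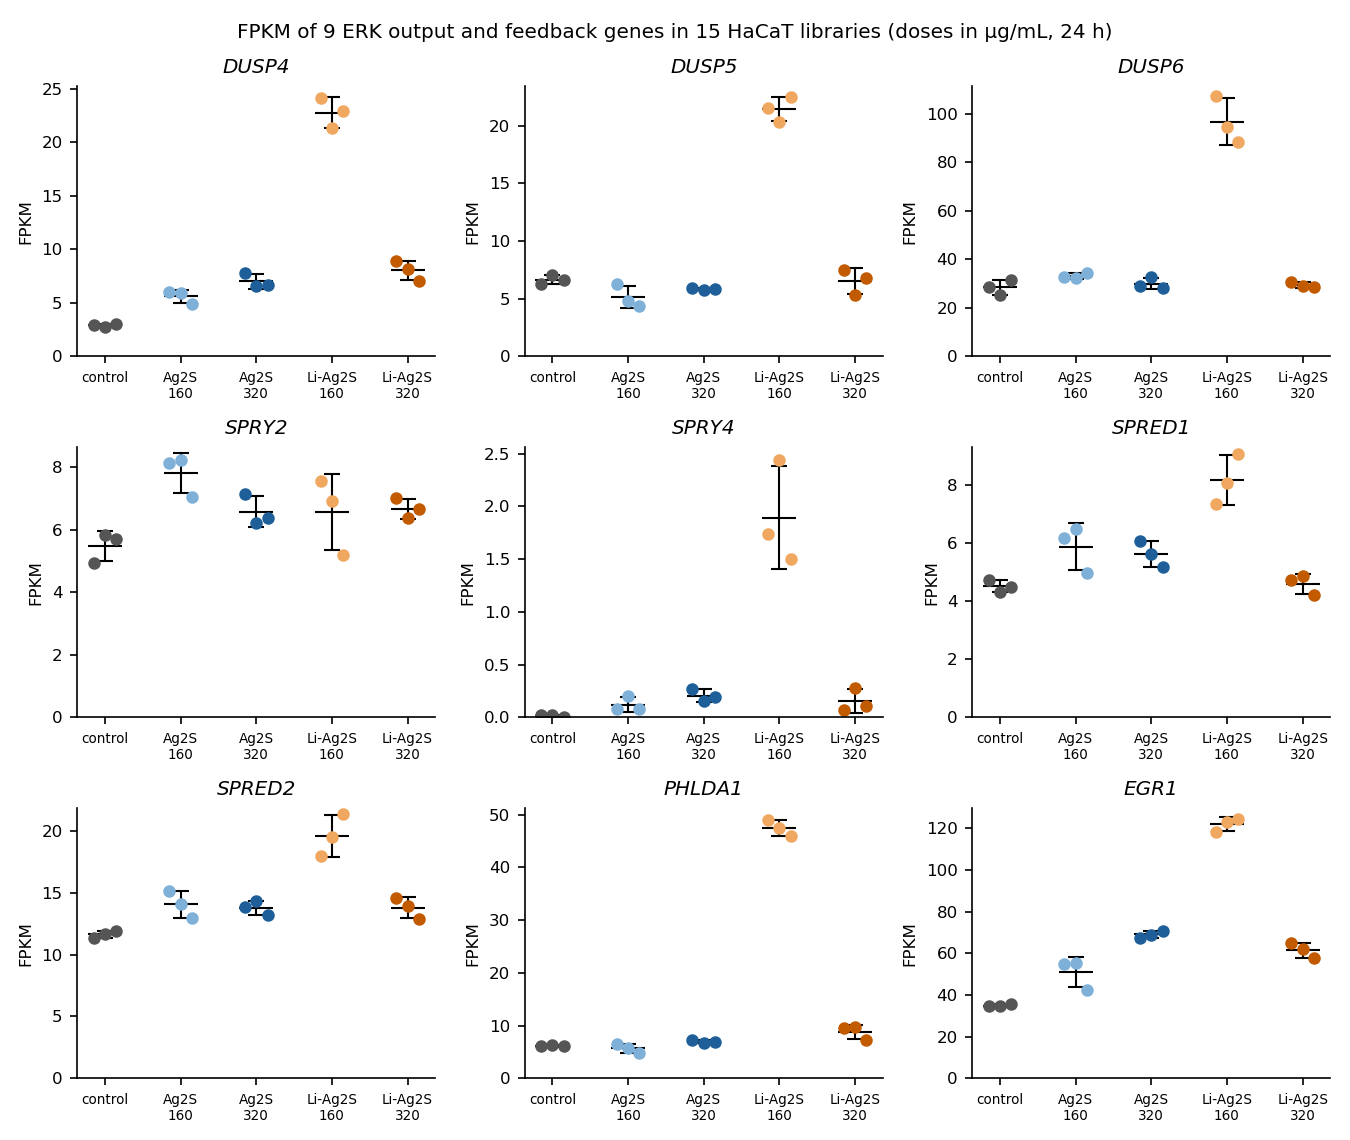
FPKM of 9 ERK output and feedback genes in each of 15 libraries, 1 panel per gene, with 5 groups along the horizontal axis (doses in μg/mL, 24 h) and FPKM from 0 on the vertical axis. Points are libraries, and bars give the mean and SD of 3. Except in SPRY2, the 3 libraries of Li-doped Ag2S NPs at 160 μg/mL lie above all the other libraries, with PHLDA1 at 46.0 to 49.1 FPKM against 4.80 to 9.77 elsewhere.

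DUSP4 (ENSG00000120875), a phosphatase that acts on ERK and also on other MAP kinases in the nucleus, was at 2.96, 2.70 and 3.0 FPKM in the control libraries. It was at 5.98, 5.96 and 4.85 FPKM with Ag2S NPs at 160 μg/mL and at 7.83, 6.53 and 6.64 at 320 μg/mL. In cells given Li-doped Ag2S NPs it was at 24.1, 21.3 and 22.9 FPKM at 160 μg/mL and at 8.88, 8.19 and 7.08 at 320 μg/mL. Every treated library was above every control library, and DUSP4 passed the test in all 4 comparisons with control. The log2 fold changes were 0.93 ± 0.12 (SE, adjusted p = 0.000343) and 1.25 ± 0.14 (adjusted p = 2.23e-05) with Ag2S NPs at the lower and the higher dose. They were 2.94 ± 0.12 (adjusted p = 9.89e-09) and 1.44 ± 0.14 (adjusted p = 6.30e-06) with Li-doped Ag2S NPs. DUSP4 kept these calls under each alternative tried.

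DUSP5 (ENSG00000138166), which binds and dephosphorylates ERK in the nucleus, was at 6.27, 7.03 and 6.61 FPKM in control. With Ag2S NPs it was at 6.24, 4.82 and 4.41 at 160 μg/mL and at 5.90, 5.78 and 5.84 at 320 μg/mL. Its FPKM under Li-doped Ag2S NPs was 21.5, 20.4 and 22.5 at the lower dose and 7.45, 5.32 and 6.82 at the higher one. The only treated group above control was thus Li-doped Ag2S NPs at 160 μg/mL, where the log2 fold change was 1.68 ± 0.13 (adjusted p = 1.22e-06). With Ag2S NPs at 160 μg/mL it passed narrowly as lower, at −0.37 ± 0.13 (adjusted p = 0.0498). That call ended when libraries were scaled by their median ratio (adjusted p = 0.162), with a pseudocount of 1 (adjusted p = 0.0540) and without any of 8 of the 9 libraries, all but replicate 4. At 320 μg/mL the 95% intervals of the log2 difference from control were −0.48 to 0.12 with Ag2S NPs and −0.34 to 0.27 with Li-doped Ag2S NPs.

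DUSP6 (ENSG00000139318), the cytoplasmic phosphatase with a preference for ERK, had a higher FPKM than DUSP4 and DUSP5 in every group. Its FPKM was 28.6, 25.3 and 31.4 in control, 32.6, 32.2 and 34.5 with the lower dose of Ag2S NPs and 28.9, 32.7 and 28.4 with the higher dose. In cells given Li-doped Ag2S NPs it was 107, 94.7 and 88.4 at the lower dose and 30.6, 29.2 and 28.5 at the higher dose. The 3 libraries of Li-doped Ag2S NPs at 160 μg/mL stood apart from the other 12, and the log2 fold change there was 1.77 ± 0.10 (adjusted p = 6.63e-08). In the other comparisons with control it was 0.22 ± 0.10 (adjusted p = 0.0918), 0.08 ± 0.09 (adjusted p = 0.493) and 0.05 ± 0.09 (adjusted p = 0.627), in the order Ag2S NPs at 160, Ag2S NPs at 320 and Li-doped Ag2S NPs at 320 μg/mL. With scaling by median ratio the first and last of these passed, at 0.35 (adjusted p = 0.0209) and 0.30 (adjusted p = 0.0199). The first also passed with weights per library, at 0.20 (adjusted p = 0.0400).

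PHLDA1 (ENSG00000139289) encodes a protein with a pleckstrin homology-like domain that is induced by growth factors and by stress. It was at 6.11, 6.29 and 6.05 FPKM in control, at 6.45, 5.80 and 4.80 with Ag2S NPs at 160 μg/mL and at 7.30, 6.68 and 6.89 with Ag2S NPs at 320 μg/mL. Its FPKM under Li-doped Ag2S NPs was 49.1, 47.5 and 46.0 FPKM at 160 μg/mL and at 9.50, 9.77 and 7.34 at 320 μg/mL. Both doses of Li-doped Ag2S NPs were above control, the lower dose by far. The log2 fold change was 2.93 ± 0.11 (adjusted p = 5.40e-09) at 160 μg/mL and 0.51 ± 0.13 (adjusted p = 0.00515) at 320 μg/mL. With Ag2S NPs it was −0.12 ± 0.11 (adjusted p = 0.417) and 0.17 ± 0.13 (adjusted p = 0.273) at the lower and higher dose, and the second passed under scaling by median ratio at 0.34 (adjusted p = 0.0195).

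EGR1 (ENSG00000120738), the transcription factor whose promoter with 2 CArG boxes is shown above, was at 34.6, 34.5 and 35.6 FPKM in control. With Ag2S NPs it was at 54.7, 55.5 and 42.6 FPKM at 160 μg/mL and at 67.6, 69.0 and 70.8 at 320 μg/mL. In cells given Li-doped Ag2S NPs it was at 118, 123 and 124 FPKM at 160 μg/mL and at 64.8, 62.0 and 57.7 at 320 μg/mL. No 2 of the 5 groups overlapped. The log2 fold change from control was 0.53 ± 0.09 (adjusted p = 0.00204) and 0.98 ± 0.06 (adjusted p = 3.26e-07) with Ag2S NPs at 160 and 320 μg/mL. It was 1.80 ± 0.09 (adjusted p = 5.52e-08) and 0.81 ± 0.06 (adjusted p = 1.35e-06) with Li-doped Ag2S NPs. These 4 calls were kept under each alternative tried.

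The Sprouty genes differed from each other. SPRY2 (ENSG00000136158), an inhibitor of receptor tyrosine kinase signaling to RAS, was at 4.94, 5.83 and 5.70 FPKM in control. It was at 8.14, 8.24 and 7.06 with Ag2S NPs at 160 μg/mL, at 7.13, 6.22 and 6.37 with Ag2S NPs at 320 μg/mL, at 7.55, 6.93 and 5.20 with Li-doped Ag2S NPs at 160 μg/mL and at 7.0, 6.36 and 6.67 with Li-doped Ag2S NPs at 320 μg/mL. Its highest group was Ag2S NPs at 160 μg/mL, the only one that passed as higher than control, at 0.50 ± 0.15 (adjusted p = 0.0281). That call ended without any 1 of control replicates 1, 2 and 3 or replicates 4 and 5 (adjusted p of 0.0531 to 0.0974). With Li-doped Ag2S NPs at 160 μg/mL the log2 difference had a 95% interval of −0.10 to 0.58, and it passed under scaling by median ratio (0.41, adjusted p = 0.0243), with weights per library (0.32, adjusted p = 0.0441) and without replicate 12 (0.40, adjusted p = 0.0311). At 320 μg/mL the log2 difference from control was 0.26 ± 0.12 with Ag2S NPs (adjusted p = 0.0978) and 0.28 ± 0.12 with Li-doped Ag2S NPs (adjusted p = 0.0651). Under scaling by median ratio both passed, at 0.42 (adjusted p = 0.0122) and 0.52 (adjusted p = 0.00313). The second also passed with weights per library (0.33, adjusted p = 0.00645), which did not converge at this dose.

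SPRY4 (ENSG00000187678), a second inhibitor of the same step, was barely detected outside a single group. It was listed at 0.02, 0.02 and 0 FPKM in control, 0.08, 0.20 and 0.08 with Ag2S NPs at 160 μg/mL and 0.27, 0.15 and 0.19 with Ag2S NPs at 320 μg/mL. Its FPKM under Li-doped Ag2S NPs was 1.74, 2.44 and 1.5 FPKM at 160 μg/mL and at 0.07, 0.28 and 0.11 at 320 μg/mL. The libraries of Li-doped Ag2S NPs at 160 μg/mL were all above 1 FPKM and the other 12 all under 0.3. Its mean over 9 libraries was under 1 FPKM at both doses, so it was not among the genes tested. When all genes were tested without a filter, its log2 fold change with Li-doped Ag2S NPs at 160 μg/mL was 4.11 ± 0.29 (adjusted p = 4.32e-06), and with a pseudocount of 1 it was 1.5 ± 0.11 (adjusted p = 8.97e-06). Without a filter it also passed against control with Ag2S NPs at 320 μg/mL (1.41 ± 0.31, adjusted p = 0.00691) and with Li-doped Ag2S NPs at 320 μg/mL (1.08 ± 0.31, adjusted p = 0.0202), the latter only with the smaller pseudocount, and not with Ag2S NPs at 160 μg/mL (0.92 ± 0.29, adjusted p = 0.0539). At 160 μg/mL it was higher with Li-doped than with undoped NPs (3.20 ± 0.29, adjusted p = 3.80e-05). The size of these values depends on the pseudocount, and no fold to control is given because a control library was listed at 0.

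The SPRED genes moved less. SPRED1 (ENSG00000166068), which brings the RAS inhibitor neurofibromin to the membrane, was at 4.73, 4.30 and 4.49 FPKM in control and at 7.34, 8.06 and 9.05 with Li-doped Ag2S NPs at 160 μg/mL. Its values were 6.18, 6.48 and 4.95 with Ag2S NPs at 160 μg/mL, 6.06, 5.60 and 5.16 with Ag2S NPs at 320 μg/mL and 4.71, 4.85 and 4.21 with Li-doped Ag2S NPs at 320 μg/mL. Both groups given Ag2S NPs lay just above control without overlap, and Li-doped Ag2S NPs at 320 μg/mL overlapped it. SPRED1 passed as higher with Li-doped Ag2S NPs at 160 μg/mL, at 0.84 ± 0.14 (adjusted p = 0.000350). The log2 differences with Ag2S NPs, 0.37 ± 0.14 (adjusted p = 0.0632) and 0.31 ± 0.13 (adjusted p = 0.0677), did not pass, and both did under scaling by median ratio (adjusted p = 0.0203 and 0.00522). Both also passed with weights per library (adjusted p = 0.00135 and 0.0258), which did not converge at 320 μg/mL. The first passed over all 15 libraries (adjusted p = 0.0434) and without replicate 6 (adjusted p = 0.0218), the second without replicate 15 (adjusted p = 0.0426).

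SPRED2 (ENSG00000198369), its relative with the same known role, was at 11.3, 11.7 and 11.9 FPKM in control. It was at 15.2, 14.1 and 12.98 with Ag2S NPs at 160 μg/mL, 13.9, 14.3 and 13.2 with Ag2S NPs at 320 μg/mL, 17.97, 19.5 and 21.3 with Li-doped Ag2S NPs at 160 μg/mL and 14.6, 13.9 and 12.9 with Li-doped Ag2S NPs at 320 μg/mL. All treated libraries were above all control libraries. It passed as higher in all 4 comparisons, by 0.27 ± 0.10 (adjusted p = 0.0497), 0.24 ± 0.09 (adjusted p = 0.0380), 0.74 ± 0.10 (adjusted p = 5.46e-05) and 0.24 ± 0.09 (adjusted p = 0.0336) in the same order. Of these calls, the one with Li-doped Ag2S NPs at 160 μg/mL was kept under each alternative tried. The others ended without 1 library, namely any control library and in addition replicates 4, 5, 10 or 11, replicates 7 or 8, and replicates 13 or 14 in that order of comparisons.

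The genes lie on 7 chromosomes of GRCh38 in GENCODE release 29, on the strand given. DUSP4 is at chr8:29333064-29350668 (minus), DUSP5 at chr10:110497838-110511544 (plus), DUSP6 at chr12:89347232-89353271 (minus) and PHLDA1 at chr12:76025447-76033932 (minus). SPRY2 is at chr13:80335976-80340951 (minus), SPRY4 at chr5:142310427-142326455 (minus), EGR1 at chr5:138465490-138469315 (plus), SPRED1 at chr15:38252326-38357249 (plus) and SPRED2 at chr2:65310851-65432637 (minus). DUSP6, PHLDA1 and SPRY4 overlap annotated antisense genes that have no row in the tables used here, and without strand the reads of such partners cannot be told apart.

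**Figure D2:**
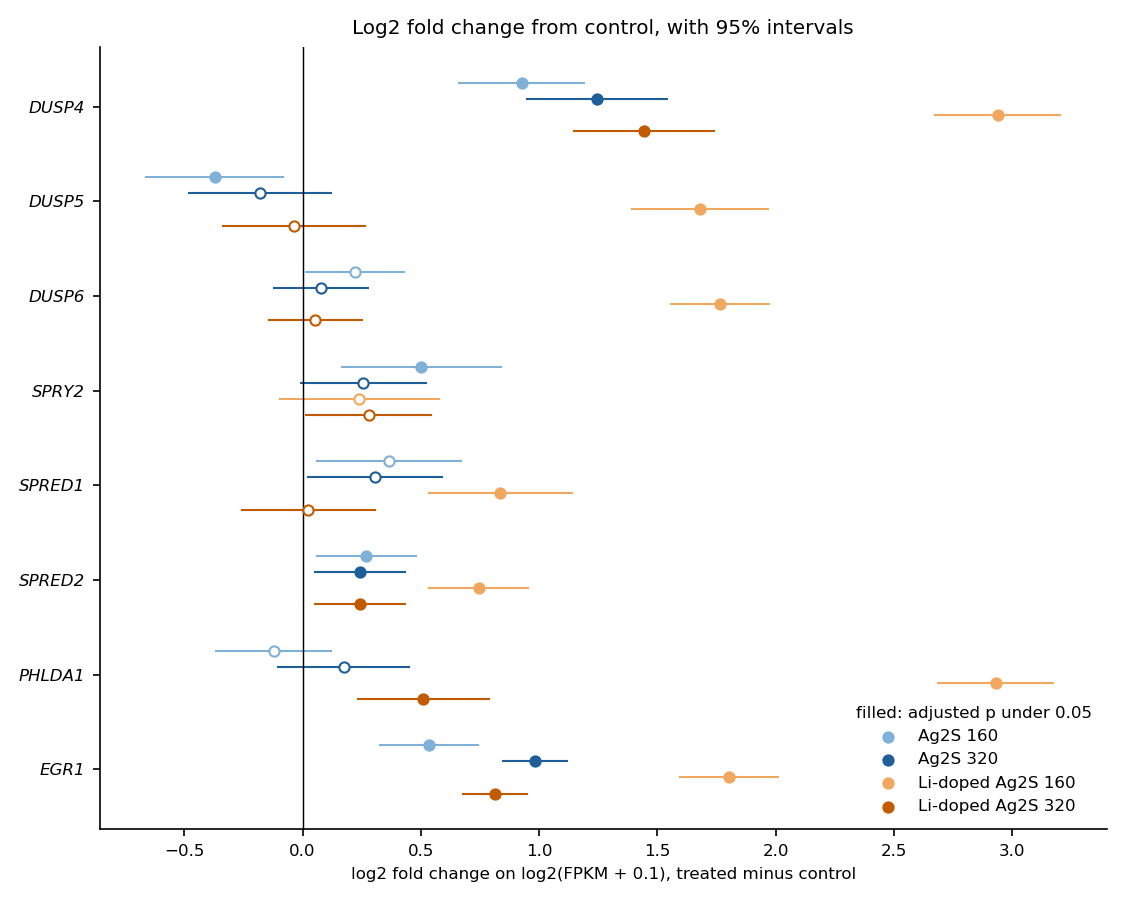
Log2 fold change from control of 8 genes on log2(FPKM + 0.1), with points for the 4 treated groups (160 and 320 in μg/mL) and lines for the 95% interval of limma. Filled points passed an adjusted p of 0.05 and open points did not. Light orange points, Li-doped Ag2S NPs at 160 μg/mL, are the farthest to the right in every gene except SPRY2, at 0.74 to 2.94.

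The comparisons with control show whether the libraries given either NP differed from the control libraries in these genes. They share the 3 control libraries, so their results are given side by side. With Ag2S NPs at 160 μg/mL, 4 of 8 genes were higher (DUSP4, EGR1, SPRY2 and SPRED2) and DUSP5 was lower, where 11.5% of 11987 genes were higher and 23.8% lower. Leaving out any 1 of the 9 libraries ended at least 1 of the 5 calls, with 2 to 5 genes called, and DUSP4 and EGR1 were called each time. With Ag2S NPs at 320 μg/mL, 3 of 8 were higher (DUSP4, EGR1 and SPRED2), where 16.2% of 11903 genes were higher and 36.2% lower. With Li-doped Ag2S NPs at 320 μg/mL, 4 of 8 were higher (DUSP4, EGR1, PHLDA1 and SPRED2), where 17% were higher and 44.6% lower. The median log2 fold change over the 8 genes was 0.32, 0.25, 1.72 and 0.26 in the order Ag2S NPs at 160, Ag2S NPs at 320, Li-doped Ag2S NPs at 160 and Li-doped Ag2S NPs at 320 μg/mL. The medians over all genes tested were −0.14, −0.19, −0.19 and −0.26. Dividing each library by its median ratio moved those to −0.01, −0.02, −0.03 and −0.01, and then 6, 6, 8 and 6 of the 8 genes were higher and none lower, where 16%, 23.2%, 29.8% and 27.4% of all genes were higher.

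Lithium doping was compared at each dose. At 160 μg/mL, 7 of 8 genes were higher with Li-doped Ag2S NPs than with Ag2S NPs, where 21.4% of all genes tested were higher and 29% lower. PHLDA1 stood at 8.36 times its mean with Ag2S NPs, a log2 difference of 3.05 ± 0.11 (adjusted p = 1.03e-08), and only 57 of 11987 genes had a larger one. DUSP5 stood at 4.16 times (2.05 ± 0.13, adjusted p = 5.68e-07), DUSP4 at 4.07 times (2.01 ± 0.12, adjusted p = 3.55e-07), DUSP6 at 2.93 times (1.54 ± 0.10, adjusted p = 4.22e-07) and EGR1 at 2.39 times (1.27 ± 0.09, adjusted p = 1.63e-06). SPRED1 and SPRED2 were higher by 0.47 ± 0.14 (adjusted p = 0.0161) and 0.47 ± 0.10 (adjusted p = 0.00196) on the log2 scale, and SPRED1 lost its call without replicate 12 (adjusted p = 0.0584). SPRY2 did not pass, at −0.26 with a 95% interval of −0.60 to 0.08.

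At 320 μg/mL none of the 8 genes passed limma's test between Li-doped and undoped NPs, where 10.1% of 11903 genes were higher and 16.1% lower. An unadjusted p under 0.05 was found for 2 of the 8 genes, beside 4752 of all 11903. The 95% intervals of the log2 difference were −0.10 to 0.50 for DUSP4, −0.16 to 0.45 for DUSP5, −0.23 to 0.18 for DUSP6, −0.24 to 0.29 for SPRY2, −0.57 to 0.00 for SPRED1 and −0.20 to 0.19 for SPRED2. DUSP4 passed with weights per library, which did not converge at this dose, at 0.35 (adjusted p = 0.0195). For PHLDA1 the difference was 0.34 with an interval of 0.05 to 0.62 (adjusted p = 0.0754), and the doped libraries, at 7.34 to 9.77 FPKM, were all above the undoped ones. It passed without replicate 15 at 0.47 (adjusted p = 0.0113), under scaling by median ratio at 0.42 (adjusted p = 0.0155) and with these weights at 0.45 (adjusted p = 0.00161). For EGR1 the difference was −0.17 with an interval of −0.31 to −0.03 (adjusted p = 0.0690), and the doped libraries were all below the undoped ones.

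The doses of each NP were compared in a fit over all 15 libraries. For Ag2S NPs, EGR1 was higher at 320 than at 160 μg/mL, by 0.45 ± 0.09 (adjusted p = 0.00339), and the other 7 genes did not pass, where 4.84% of 11952 genes were higher and 7.68% lower. DUSP4 and PHLDA1 had intervals above 0, of 0.05 to 0.59 and 0.03 to 0.56, and passed only under scaling by median ratio (adjusted p = 0.0498 and 0.0450) or, for PHLDA1, also with weights per library (adjusted p = 0.0452). With these weights SPRY2 passed as lower at 320 than at 160 μg/mL, at −0.33 (adjusted p = 0.0398). For Li-doped Ag2S NPs, 7 of 8 genes were lower at 320 than at 160 μg/mL, where 19.6% of all genes were higher and 23.3% lower. PHLDA1 fell by 2.42 ± 0.12 (adjusted p = 9.57e-10), DUSP5 by 1.71 ± 0.14 (adjusted p = 1.55e-07), DUSP6 by 1.71 ± 0.09 (adjusted p = 1.60e-09) and DUSP4 by 1.49 ± 0.13 (adjusted p = 2.04e-07) on the log2 scale. EGR1 fell by 0.99 ± 0.09 (adjusted p = 3.26e-07), SPRED1 by 0.81 ± 0.13 (adjusted p = 0.000169) and SPRED2 by 0.50 ± 0.09 (adjusted p = 0.000421). In FPKM, PHLDA1 at the lower dose was 5.36 times its mean at the higher dose, DUSP5 and DUSP6 3.29 times, DUSP4 2.83 times and EGR1 1.98 times.

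The effect of dose itself differed between the NPs for 7 of 8 genes, all of them lower for Li-doped Ag2S NPs relative to Ag2S NPs, where 20.2% of 11952 genes were higher and 19.5% lower. The difference of the log2 dose effects was −2.72 ± 0.17 for PHLDA1 (adjusted p = 1.55e-08), −1.91 ± 0.20 for DUSP5 (adjusted p = 2.57e-06), −1.81 ± 0.18 for DUSP4 (adjusted p = 1.36e-06), −1.57 ± 0.13 for DUSP6 (adjusted p = 2.23e-07) and −1.44 ± 0.12 for EGR1 (adjusted p = 3.12e-07). It was −0.75 ± 0.19 for SPRED1 (adjusted p = 0.00492) and −0.48 ± 0.13 for SPRED2 (adjusted p = 0.00853). For SPRY2 it was 0.29 with a 95% interval of −0.13 to 0.70. No call among the 8 genes changed under any alternative tried for this comparison or for the doses of Li-doped Ag2S NPs.

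**Figure D3:**
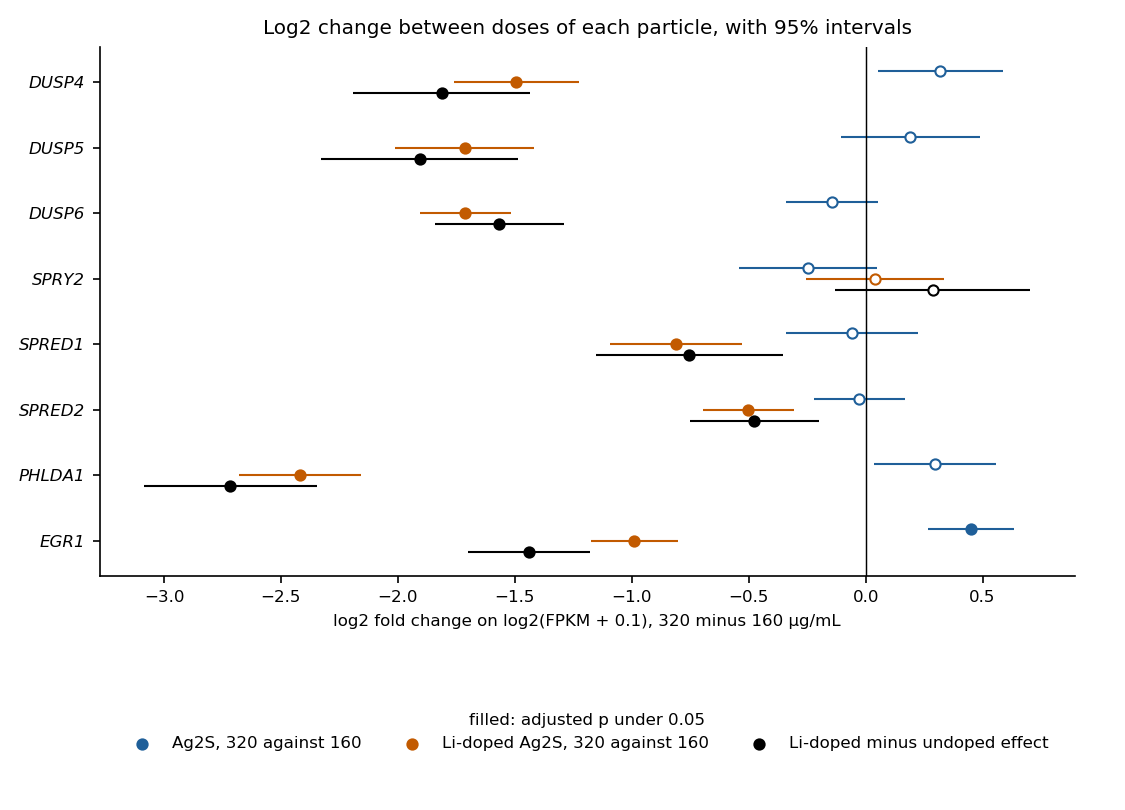
Log2 change from 160 to 320 μg/mL of 8 genes for Ag2S NPs (blue) and Li-doped Ag2S NPs (orange), and the difference between both (black), with 95% intervals of limma on log2(FPKM + 0.1). Filled points passed an adjusted p of 0.05. Orange points lie between −2.42 and −0.50 except in SPRY2, while blue points lie between −0.24 and 0.45.

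By level, the 5 groups fell into different orders. For DUSP5 and DUSP6 the group with Li-doped Ag2S NPs at 160 μg/mL stood apart and the 4 other groups formed a run in which each overlapped its neighbor. For DUSP4 the order from the top was Li-doped Ag2S NPs at 160 μg/mL, Li-doped Ag2S NPs at 320, Ag2S NPs at 320, Ag2S NPs at 160 and control, where only the groups at 320 μg/mL overlapped. For EGR1 the group with Ag2S NPs at 320 μg/mL came second at 69.2 ± 1.61 FPKM (SD, n = 3), ahead of Li-doped Ag2S NPs at 320 μg/mL at 61.5 ± 3.59. For SPRED2 the 3 groups other than control and Li-doped Ag2S NPs at 160 μg/mL had nearly the same mean, 13.8 to 14.1 FPKM. Per length of transcript, EGR1 and DUSP6 were the most abundant genes of the list in control, at 34.9 ± 0.606 and 28.4 ± 3.01 FPKM, and PHLDA1 moved from 6.15 ± 0.125 in control to 47.5 ± 1.53 with Li-doped Ag2S NPs at 160 μg/mL, above DUSP4, DUSP5 and both SPRED genes.

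Transcript values were deposited as FPKM as well. DUSP6 was spread over 3 coding transcripts, ENST00000279488 with 3 exons and a coding length of 1143 bases, and ENST00000308385 and ENST00000547291 with 2 exons each and coding lengths of 705 and 768 bases. Their shares of the DUSP6 transcript FPKM were 29.6%, 26.6% and 43.8% in control and 28.5%, 25.8% and 45.7% with Li-doped Ag2S NPs at 160 μg/mL. All 3 were higher in that group, where the first moved from a mean of 8.32 to 27.5 FPKM, the second from 7.66 to 25.02 and the third from 12.4 to 44.3. PHLDA1 came mainly from ENST00000602540, with 72.1% of its transcript FPKM in control and 78.5% with Li-doped Ag2S NPs at 160 μg/mL, or 4.43 and 37.3 FPKM. The longer coding transcript ENST00000619060 was at 1.42 and 8.97 FPKM, with a wide spread of 2.68 to 12.5 in the treated group. A single transcript held all of the FPKM of DUSP5 and of EGR1, and at least 94.9% of that of DUSP4 in every library. Transcripts were not tested.

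**Figure D4:**
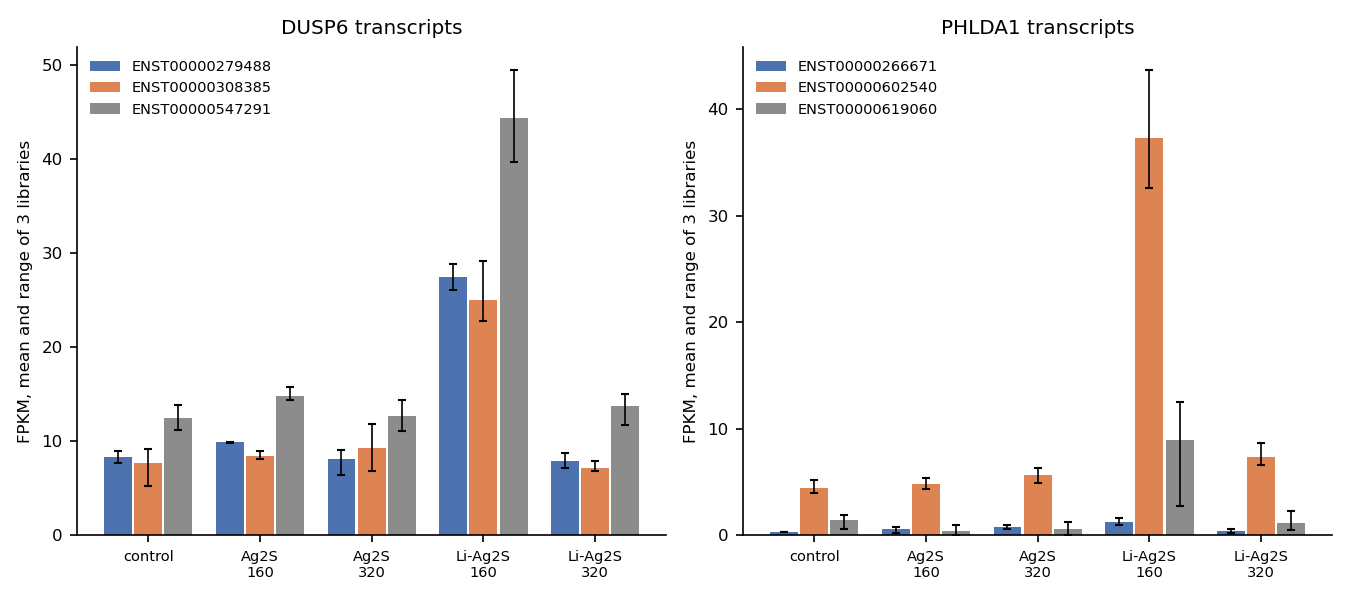
FPKM of the 3 main transcripts of DUSP6 (left) and of PHLDA1 (right) in 5 groups (doses in μg/mL), with bars for the mean and lines for the range of 3 libraries. With Li-doped Ag2S NPs at 160 μg/mL the 3 DUSP6 transcripts stand at 27.5, 25.02 and 44.3 FPKM, while ENST00000602540 of PHLDA1 reaches 37.3.

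Other outputs of ERK were examined as a list of 20 genes, chosen like the list above with results of these data known. With Li-doped Ag2S NPs at 160 μg/mL 14 of the 17 tested were higher than control and 1 was lower, where 22.6% of all genes tested were higher and 40.6% lower. ETV1, an ETS transcription factor counted as higher, passed the filter only through that group (a mean of 2.62 FPKM there and 0.478 over the other libraries), and without it 13 of 16 were higher and 1 was lower. The median log2 fold change of those 16 was 1.09 beside −0.19 over all genes. IER3, an early response gene that affects cell survival, was at 24.2 ± 2.17 FPKM in control and 300 ± 24.3 in that group (3.63 ± 0.08, adjusted p = 1.41e-10). ERRFI1, a feedback inhibitor of the EGF receptor, was at 3.59 ± 0.215 and 41.5 ± 4.69 FPKM (3.49 ± 0.13, adjusted p = 4.23e-09). FOSL1, a subunit of AP-1, was at 13.2 ± 0.853 and 75.3 ± 10.2 FPKM (2.50 ± 0.10, adjusted p = 1.00e-08), and ETV4, another ETS transcription factor, rose by 1.81 ± 0.09 (adjusted p = 3.86e-08). The gene that was lower is EPHA4, an ephrin receptor (−2.21, adjusted p = 1.69e-05), named after its value was seen.

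In the other groups, leaving ETV1 out, 7 of 16 were higher and 1 lower with Ag2S NPs at 160 μg/mL (11.5% and 23.8% of all genes), 10 and 1 with Ag2S NPs at 320 μg/mL (16.2% and 36.2%), and 9 and 3 with Li-doped Ag2S NPs at 320 μg/mL (17% and 44.6%), with medians of 0.23, 0.42 and 0.28. IER3 rose by 1.68, 2.31 and 2.14 there and ETV4 by 1.25, 1.18 and 1.26. EPHA2, an ephrin receptor, fell by 1.39, 0.89 and 0.97 in the same order. Between the doses of Li-doped Ag2S NPs 14 of 16 were lower at 320 μg/mL and 1 was higher (23.3% and 19.6% of all genes), FOSL1 being lower by 2.34 ± 0.11 (adjusted p = 2.29e-10). The difference of the dose effects was called for all 16, as lower for 15 and as higher for 1, where 19.5% and 20.2% of all genes were.

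Of 8 further MAP kinase phosphatases, 7 were tested. DUSP8 passed the filter only through its highest group at either dose (2.78 FPKM with Li-doped Ag2S NPs at 160 μg/mL against 0.687 over the other libraries of that dose) and is left out of the counts. In the group with Li-doped Ag2S NPs at 160 μg/mL 3 of the remaining 6 were higher and 2 lower, where 22.6% and 40.6% of all genes were. DUSP7, a cytoplasmic phosphatase of ERK, rose by 1.29 ± 0.08 (adjusted p = 2.40e-07) from 28.1 ± 0.433 to 68.7 ± 3.94 FPKM. DUSP10, which acts mainly on JNK and p38, fell by 1.55 ± 0.12 (adjusted p = 8.05e-07) from 41.8 ± 2.61 to 14.2 ± 1.00 FPKM. Both genes were called in these directions in all 4 comparisons with control, DUSP7 at 0.46 to 1.29 and DUSP10 at −1.55 to −0.77. In the other groups 1 was higher and 2 lower with Ag2S NPs at 160 μg/mL (11.5% and 23.8% of all genes), and 2 were higher and 2 lower with either NP at 320 μg/mL (16.2% and 36.2% for Ag2S NPs, 17% and 44.6% for Li-doped Ag2S NPs). The medians were 0.43 with Li-doped Ag2S NPs at 160 μg/mL and −0.05, 0.32 and 0.13 in these 3.

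The genes of the cascade itself, 34 from adaptors to kinases and their transcription factors, were all tested. In the group with Li-doped Ag2S NPs at 160 μg/mL 5 were higher and 9 lower (14.7% and 26.5%, beside 22.6% and 40.6% of all genes), and the median of −0.15 lay near the −0.19 of all genes. PEBP1, an inhibitor of RAF, fell by 1.08 ± 0.06 (adjusted p = 1.33e-07), from 122 ± 4.47 to 57.7 ± 2.77 FPKM. SHC1, an adaptor between receptors and RAS, rose by 1.40 ± 0.08 (adjusted p = 1.53e-07), from 69.1 ± 5.64 to 183 ± 13.5 FPKM. The kinase ARAF fell by 0.75 ± 0.08 (adjusted p = 1.23e-05) and the RAS activator SOS2 by 0.98 ± 0.11 (adjusted p = 1.74e-05). In the other groups 2 were higher and 9 lower, 1 and 13, and 4 and 21, in the order Ag2S NPs at 160, Ag2S NPs at 320 and Li-doped Ag2S NPs at 320 μg/mL, with medians of −0.13, −0.27 and −0.44. As shares these were 5.88% and 26.5%, 2.94% and 38.2%, and 11.8% and 61.8%, beside 11.5% and 23.8%, 16.2% and 36.2%, and 17% and 44.6% of all genes, so the shares that were lower with Ag2S NPs lay near those of all genes. SHC1 was called higher and PEBP1 lower in all of them.

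**Figure D5:**
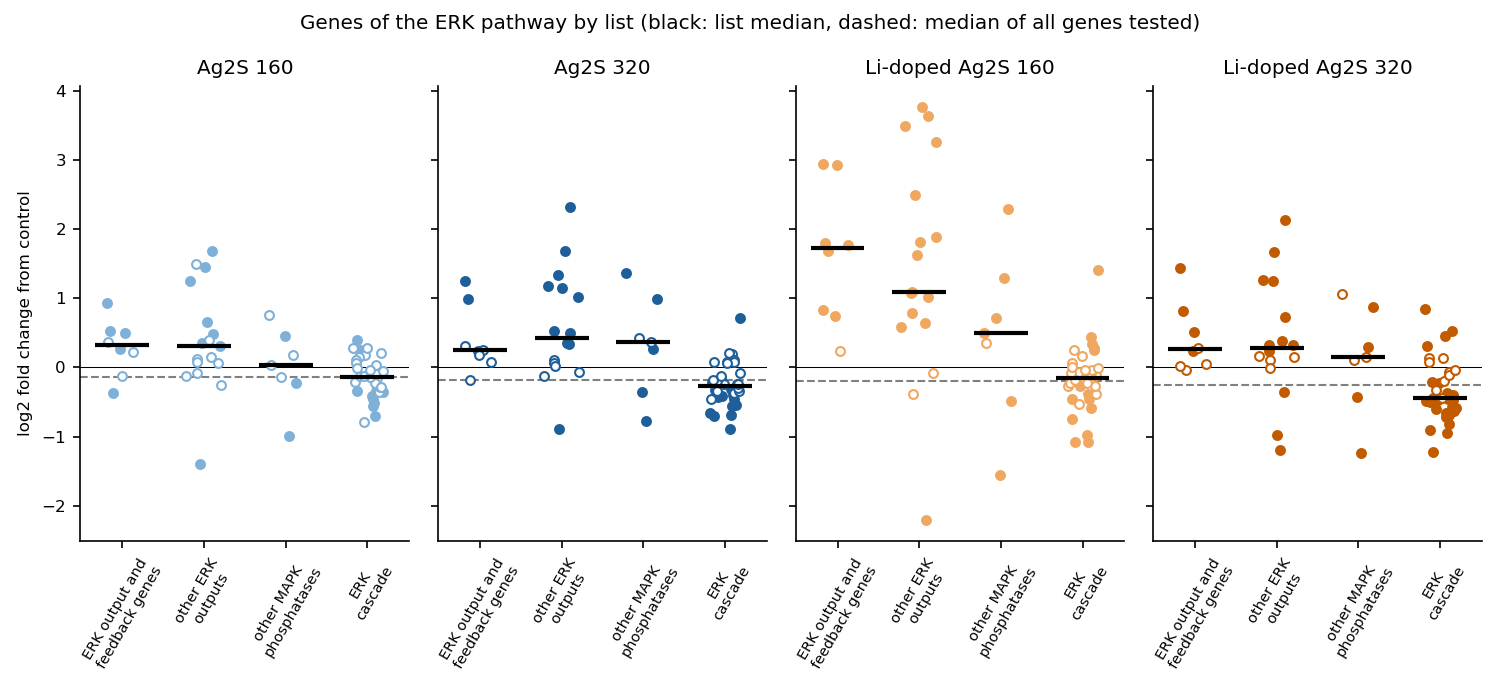
Log2 fold change from control of the genes of 4 lists in each treated group, 1 panel per group (doses in μg/mL). Each point is a gene, filled where it passed an adjusted p of 0.05. Black bars are list medians and the dashed line is the median of all genes tested. With Li-doped Ag2S NPs at 160 μg/mL the medians of ERK output and feedback genes and of other ERK outputs (ETV1 included) stand at 1.72 and 1.10, and that of the cascade at −0.15. The points and medians of other MAPK phosphatases include DUSP8, with a median of 0.49 in that group.

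For 8 of the genes, the 3 genes with the most similar pattern were found by the root mean square difference of the 4 log2 differences from control, over group means of 15 libraries. PHLDA1 was nearest to TRIB3, a stress-induced pseudokinase, at 0.184, then SYP at 0.225 and FOSL1 at 0.301. DUSP4 was nearest to DUSP23, BNIP3 and GPAT3 (0.201 to 0.228), DUSP5 to SLC20A1, CTH and GPT2 (0.0723 to 0.143) and DUSP6 to ANKRD18A, ATP2C2 and YARS (0.0827 to 0.164). The nearest genes of SPRY4 were TUBB2B, UPP1 and ERRFI1 (0.354 to 0.411). SPRY2 was nearest to FBXO4, GNG5 and SDR16C5 (0.0660 to 0.0709), SPRED1 to GMDS, EMP1 and TMEM14B (0.0664 to 0.0747) and SPRED2 to IL4R, JOSD1 and BACE2 (0.0311 to 0.0487). A small change leaves little room for a difference, so these distances are not comparable between genes.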

How the data were processed

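The authors sequenced paired reads of 150 bases, mapped them with TopHat, and ran Cufflinks 2.1.1 for FPKM per gene and transcript and Cuffdiff for group comparisons, with its corrections for fragment bias and for reads that map to several places. Other versions, the build and the annotation are not given in these sources. All 18179 gene identifiers occur in GENCODE release 29. FPKM was deposited per library with 2 decimals, also beside the authors' own comparisons (group FPKM, log2 ratio, p and q), which were not used. Control FPKM was equal in both tables used.

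Genes whose FPKM averaged at least 1 in the libraries fitted were tested on log2(FPKM + 0.1), which understates changes of low genes, with limma 3.58.1 in R 4.3.3 (lmFit, eBayes with a trend, 2-sided, Benjamini and Hochberg over all genes, adjusted p of 0.05). Each dose was fitted over 9 libraries, and comparisons of doses over 15. Depth is unknown, so no counting error was computed. The procedure was tested on simulated data. Alternatives were a pseudocount of 1, no filter, a mean of at least 5, scaling by median ratio, weights per library, the compared groups alone, all 15 libraries and leaving out each library. A test of SPRY4 with no filter and a pseudocount of 1 was chosen after seeing the data.

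The genes and lists were chosen with earlier results of these data known. Named were all 10 genes, up to 4 genes of each list per comparison with control with the smallest p, the 3 nearest genes of each gene, and cell type markers. The nearest genes of EGR1 are not reported here.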

Additional observations from a re-analysis of the deposited data

Results flagged for a closer look

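The effect of dose differed between the NPs, by the test of the difference itself over 15 libraries (limma, log2 scale, Li-doped Ag2S NPs minus Ag2S NPs), for 7 of the 8 genes tested and for SPRY4 without a filter. Among all 11952 genes that passed the filter, 20.2% were called higher and 19.5% lower by that test. The difference was −2.72 for PHLDA1, −1.91 for DUSP5, −1.81 for DUSP4, −1.57 for DUSP6, −1.44 for EGR1, −0.75 for SPRED1 and −0.48 for SPRED2. For SPRY4, which was close to 0 FPKM in 12 of 15 libraries, it was −3.52 with a pseudocount of 0.1 and −1.42 with a pseudocount of 1. Groups of 3 libraries were not examined for outlying values.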

How the results depend on the processing

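No paired analysis was possible because the groups share no replicate numbers. The counts of called genes for Li-doped Ag2S NPs at 160 μg/mL (against control and against Ag2S NPs), for the doses of Li-doped Ag2S NPs and for the difference of the dose effects stayed within 1.5 times under each alternative run. The count for Ag2S NPs at 160 μg/mL against control, 5, was 3 with a pseudocount of 1, 3 without a filter, 3 with the 2 compared groups alone and 2 to 5 without 1 library. For Ag2S NPs at 320 μg/mL against control, 3 became 6 with scaling by median ratio, and 2 to 4 without 1 library. Between the NPs at 320 μg/mL, 0 became 1 with that scaling, 2 with weights per library (the weights of the fit at 320 μg/mL did not converge) and 0 to 1 without 1 library. Between the doses of Ag2S NPs, 1 became 3 with that scaling and 3 with weights per library. That scaling moved the share of higher among called genes from 32.5% to 53.3%, 30.9% to 50.7%, 35.8% to 49.0% and 27.5% to 50.4% in the 4 comparisons with control (Ag2S NPs at 160 and 320, Li-doped at 160 and 320 μg/mL), from 38.5% to 50.6% between the NPs at 320 μg/mL and from 38.7% to 52.4% between the doses of Ag2S NPs.

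Log2 values near 0 changed sign. With scaling by median ratio PHLDA1 was at 0.00392 with Ag2S NPs at 160 μg/mL, DUSP5 at 0.21 with Li-doped Ag2S NPs at 320 μg/mL (0.11 with weights per library), DUSP6 at 0.0561 and SPRED2 at 0.0784 between the NPs at 320 μg/mL (SPRED2 at 0.0547 with weights) and SPRED2 at 0.00137 between the doses of Ag2S NPs. Without 1 library the values ran from −0.00118 to 0.152 (DUSP6, Ag2S NPs at 320 μg/mL against control), and with Li-doped Ag2S NPs at 320 μg/mL against control from −0.136 to 0.103 (DUSP5), −0.0259 to 0.127 (DUSP6) and −0.0158 to 0.0841 (SPRED1). Between the NPs at 320 μg/mL they ran from −0.0628 to 0.0389 (DUSP6), −0.0144 to 0.0827 (SPRY2) and −0.0433 to 0.0455 (SPRED2). Between the doses of Ag2S NPs they ran from −0.175 to 0.0161 (SPRED1) and −0.0837 to 0.027 (SPRED2), and between those of Li-doped Ag2S NPs from −0.115 to 0.15 (SPRY2). The cause of these changes was not tested.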
